A study of Mus musculus with 14 samples.

Results

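The mouse mitochondrial genome is represented by 37 gene rows, the symbols that begin with mt-, among 53735 gene symbols measured by RNA-seq in mouse hearts. All 37 rows were taken by name, whatever their values. They comprise 13 mRNA genes, 2 rRNA genes and 22 tRNA genes, of which 28 are coded on the plus strand of the reference and 9 on the minus strand. The study compared hearts of mice with a conditional deletion (cKO) of Fam210a, which encodes a mitochondrial protein, with control hearts at 2 times after tamoxifen. All mice were male C57BL/6 and carried the alphaMHC-MerCreMer transgene, a Cre recombinase that is activated by tamoxifen and driven by the cardiomyocyte Myh6 promoter. The cKO mice also had floxed Fam210a alleles (Fam210afl/fl), so the deletion was directed to cardiomyocytes and not to the other cells of the heart. Controls had the same transgene and tamoxifen without the floxed alleles. The groups were 4 cKO and 4 control hearts about 5 weeks after tamoxifen (early), when cardiac function was described as normal, and 3 cKO and 3 control hearts about 10 weeks after it (late), when function was described as strongly impaired. Whether each library is its own animal is not stated in the labels, so a heart below means 1 library, and p-values cover no more than the spread among these libraries.

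The mitochondrial genome is a small circle without introns, carried in many copies per cell. Both strands are transcribed as long precursor RNAs, in which most tRNAs sit between the mRNAs and rRNAs. The enzymes RNase P and ELAC2 cut at the ends of the tRNAs, and this releases the RNAs on either side. The mRNAs code for core subunits of the respiratory chain and the ATP synthase, on which heart muscle depends for its ATP, while the rRNAs and tRNAs serve the translation of these mRNAs inside the organelle. Most mitochondrial mRNAs in mammals carry short poly-A tails, and mature tRNAs do not.

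The sequences of 6 tRNA genes are shown first, because tRNA rows gave the single call among the mitochondrial genes early and, among the rows tested, the largest changes late. All are from the GENCODE M21 transcripts on GRCm38, are written 5′ to 3′ in the direction of the gene, and have the anticodon in capitals. They are the genes of tRNA-Trp (mt-Tw, chrM:4950-5016, plus strand), tRNA-Ile (mt-Ti, chrM:3706-3774, plus strand), tRNA-Gln (mt-Tq, chrM:3772-3842, minus strand), tRNA-Thr (mt-Tt, chrM:15289-15355, plus strand), tRNA-Pro (mt-Tp, chrM:15356-15422, minus strand) and tRNA-Glu (mt-Te, chrM:14071-14139, minus strand).
mt-Tw: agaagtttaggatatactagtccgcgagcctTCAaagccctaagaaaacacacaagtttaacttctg
mt-Ti: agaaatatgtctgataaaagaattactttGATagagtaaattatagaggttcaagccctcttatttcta
mt-Tq: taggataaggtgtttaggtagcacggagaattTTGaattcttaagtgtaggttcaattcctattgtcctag
mt-Tt: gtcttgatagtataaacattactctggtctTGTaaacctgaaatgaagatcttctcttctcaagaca
mt-Tp: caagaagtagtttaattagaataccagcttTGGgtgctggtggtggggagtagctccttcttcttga
mt-Te: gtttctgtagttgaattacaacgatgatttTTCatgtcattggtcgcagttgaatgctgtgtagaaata
The pairs mt-Ti with mt-Tq and mt-Tt with mt-Tp lie side by side on opposite strands. The ends of mt-Ti and mt-Tq share 3 bases, and mt-Tt and mt-Tp adjoin with no base between them. The libraries did not mark the strand, so a read over one of these genes cannot be assigned to an RNA of either strand. The tRNA genes are 59 to 75 bases long, shorter than the 100-nt reads, so a full-length read over one of them reaches into neighbouring sequence. Counts in these rows are thus not a measure of mature tRNA, and the RNA molecules they came from were not examined.

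Libraries held 15657298 to 19466469 counts early and 29989076 to 35750964 late. Levels are counts per 1000000 counts (CPM), scaled within each time. Early and late libraries are in separate tables, so an effect of time cannot be told apart from one of the table, and the comparisons stay within a table. Fam210a averaged 146 ± 10.2 CPM in early cKO hearts, against 170 ± 6.04 CPM in early controls (SD, n = 4 each; log2 fold change -0.22, adjusted p = 0.17), and 66.8 ± 3.41 CPM in late cKO hearts, against 128 ± 7.27 CPM in late controls (SD, n = 3 each; log2 fold change -0.94, adjusted p = 6.5e-05). The deleted gene thus passed the test as a fall late and not early. The title of early cKO replicate 4 calls it a knockout, but the genotype entered for it is that of a control. Late cKO replicate 3 stood apart: its chi-square per gene was 107 and 101 against the other late cKO hearts, whose own value was 21.5. The hearts held the 10 listed cardiomyocyte markers at a summed 65976 to 70879 CPM in early cKO hearts and 73390 to 80442 CPM in early controls, and at 65712 to 76707 CPM in late cKO hearts and 74989 to 84677 CPM in late controls. Early, 0 of 53 tested markers of these and other cell types passed edgeR's test (9 at an unadjusted p under 0.05, and 1 in DESeq2's test). The 6 fat-cell markers summed to 1.77 to 15.4 CPM in early cKO hearts and 0.356 to 2.03 CPM in early controls, and the one tested, Cfd, had a log2 fold change of 3.28 (adjusted p = 0.0502). The 5 atrial markers summed to 57.6 to 1480 CPM in early cKO hearts and 62.2 to 334 CPM in early controls. Late, 31.8% of all genes tested rose and 33.2% fell, and of the 10 cardiomyocyte markers 1 rose and 4 fell. Among the other cells of the heart, 7 of 8 endothelial markers fell, summing to 679.7 to 754 CPM in late cKO hearts and 1556 to 1744 CPM in late controls. The falls numbered 8 of 10 for macrophage markers, with sums of 229 to 295 CPM in late cKO hearts and 443 to 447 CPM in late controls, and 5 of 8 for fibroblast markers, with 788.5 to 1102 CPM in late cKO hearts and 1332 to 1744 CPM in late controls. Of 8 smooth muscle and pericyte markers 7 fell and 1 rose, while their sum was 1642 to 2342 CPM in late cKO hearts and 1492 to 1579 CPM in late controls. All 5 red blood cell markers rose, summing to 196 to 377 CPM in late cKO hearts and 42.7 to 74.2 CPM in late controls. In bulk hearts, fewer cells of a type and less RNA per cell cannot be told apart, and the part of these shifts in the mitochondrial values was not tested.

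The mitochondrial rows differed from each other by their presence in the table before any comparison of groups. Early, 15 of the 37 rows had enough counts for the test, namely 7 mRNAs, both rRNAs and 6 tRNAs. Another 3 rows fell below the filter on low counts, 9 had fewer than 10 counts in every library and 10 had none. Late, 19 rows were tested (7 mRNAs, both rRNAs and 10 tRNAs), 2 fell below the filter, 5 had fewer than 10 counts in every library and 11 had none. Over all 14 libraries, 9 rows stayed at 0. These were mt-Atp8, which codes for an ATP synthase subunit, and the tRNA genes mt-Tf, mt-Ts1, mt-Td, mt-Tk, mt-Tg, mt-Th, mt-Ts2 and mt-Tl2. A count of 0 allows up to 3 counts in a library, or 0.154 to 0.192 CPM early and 0.0839 to 0.100 CPM late, for counting error only.

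Many of the near-empty rows lay in one stretch of the genome. The 11 rows that lie between mt-Co1 and mt-Nd4 gave no tested gene at either time. The stretch includes mt-Co2 and mt-Co3, subunits of complex IV (cytochrome c oxidase), mt-Atp6 and mt-Atp8 of the ATP synthase, and mt-Nd3 and mt-Nd4l of complex I (NADH dehydrogenase). Over all libraries the highest count was 399 for mt-Co3, in 1 late control, 111 for mt-Co2, in another late control, 15 for mt-Nd3, 4 for mt-Atp6 and 1 for mt-Nd4l. By comparison, mt-Co1, which lies next to the stretch and is read from the same strand, reached 2676984 counts in 1 library.

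Most of the near-empty mRNAs have an exact copy in the nuclear genome. Every 100-base window of each mitochondrial mRNA was looked for in the other GENCODE M21 transcripts, on either strand. Of the windows of mt-Co3, 99.85% were found in a nuclear transcript, with 99.49% for mt-Co2, 99.48% for mt-Atp6, 98.48% for mt-Nd4l and 97.59% for mt-Nd3. Apart from mt-Atp8, these 5 genes are the mRNA genes with at most 399 counts in any library. The share was 60.75% for mt-Nd4, 30.84% for mt-Co1, 3.19% for mt-Nd2 and 0% for mt-Nd1, mt-Nd5, mt-Nd6 and mt-Cytb, the 7 mRNAs that were tested. The gene mt-Atp8 had no count in any library, and 0% of its windows were found in these transcripts. Nuclear sequence outside annotated transcripts was not searched. This holds for the bases between 24614651 and 24614885 on chromosome 1, between the copies of mt-Atp6 and mt-Co2, the mRNA genes on either side of mt-Atp8. Whether mt-Atp8 has a nuclear copy was thus not settled. The copies are 10 unprocessed pseudogenes, 7 of them on chromosome 1 between 24611535 and 24616197 and 3 on chromosome 2 (GRCm38). One stretch of 60 bases is shown as an example of the identity. It is found in mt-Co2 (chrM:7325-7384, plus strand) and, letter for letter, in the pseudogene Gm28661 (chr1:24615194-24615253, minus strand).
mt-Co2 and Gm28661: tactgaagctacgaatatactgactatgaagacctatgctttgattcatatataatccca
A read from such a stretch matches both places equally well. How the authors counted reads that match more than one place is not given in the sources used here, and the pseudogenes' symbols were not among those of the count tables. The part of these copies in the empty rows was not tested. Counts of mt-Nd4 and mt-Co1, which share part of their windows, are uncertain as levels for the same reason, while both groups of a comparison share the copies.

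**Figure D1:**
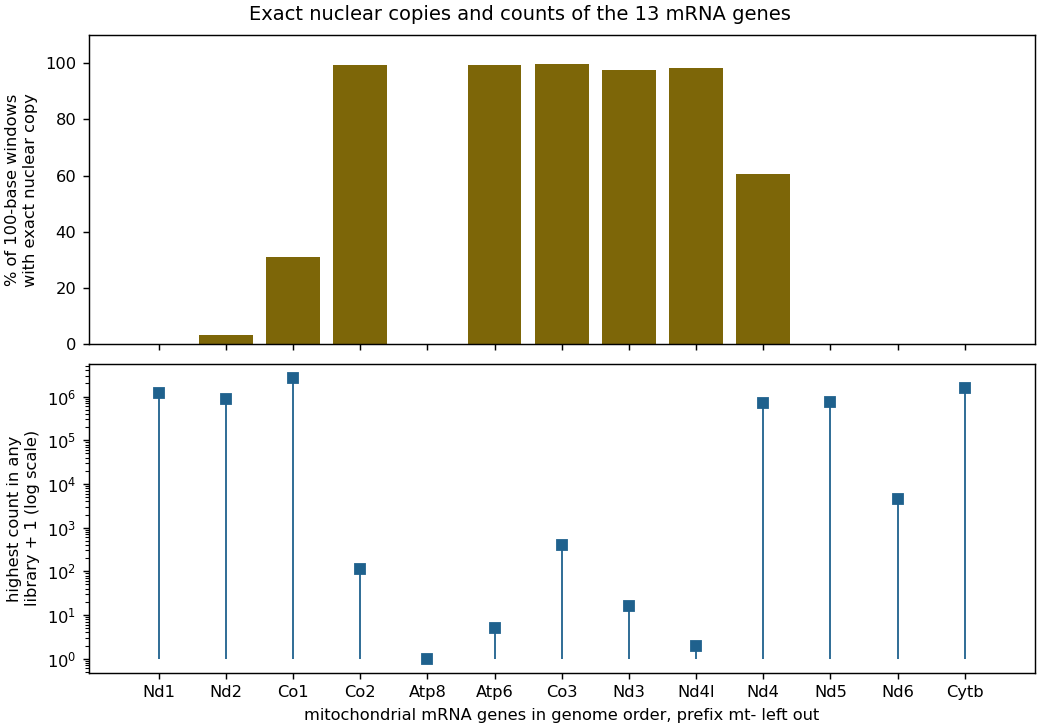
The upper panel shows, for each of the 13 mitochondrial mRNA genes in genome order, the percent of its 100-base windows found exactly in a nuclear transcript. The lower panel shows the highest count of the gene in any of the 14 libraries plus 1, on a log scale. The 5 genes above 97% reach at most 399 counts. For mt-Atp8 there is no count and no copy in the annotated transcripts, the only nuclear sequence searched.

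Levels per length put the tested mRNAs over a wide range. In early cKO hearts mt-Cytb stood at 52844 ± 3433 CPM per kilobase and mt-Co1 at 48788 ± 3200 CPM per kilobase, and in early controls mt-Co1 stood at 50153 ± 1158 CPM per kilobase and mt-Cytb at 44956 ± 849 CPM per kilobase (SD, n = 4 each). Thus mt-Co1 and mt-Cytb overlapped in early cKO hearts and did not overlap in early controls, where mt-Co1 was higher. They were followed in both groups by mt-Nd1, mt-Nd2, mt-Nd5 and mt-Nd4, which code for subunits of complex I, and then by the rRNAs. The lowest tested mRNA was mt-Nd6, the single mRNA of the minus strand, at 134 ± 48.0 CPM per kilobase in early cKO hearts, against 126 ± 27.5 CPM per kilobase in early controls. Since the libraries were made from RNA bound to oligo-dT, a level per length also depends on the poly-A tail of the RNA. The low rRNA level per length thus does not measure the rRNA of the tissue. For the same reason the low level of mt-Nd6 cannot be read as low expression.

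The order of the mRNAs per length was another one in late cKO hearts. There mt-Cytb (30368 ± 1805 CPM per kilobase) and mt-Nd1 (30315 ± 5133 CPM per kilobase) overlapped at the top, mt-Nd2 followed at 19647 ± 4692 CPM per kilobase, and mt-Co1 was the fourth at 12855 ± 3013 CPM per kilobase (SD, n = 3). In late controls mt-Co1 (45365 ± 6063 CPM per kilobase) and mt-Cytb (41472 ± 1262 CPM per kilobase) overlapped at the top, and mt-Nd1 stood well below them at 22938 ± 2314 CPM per kilobase (SD, n = 3).

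**Figure D2:**
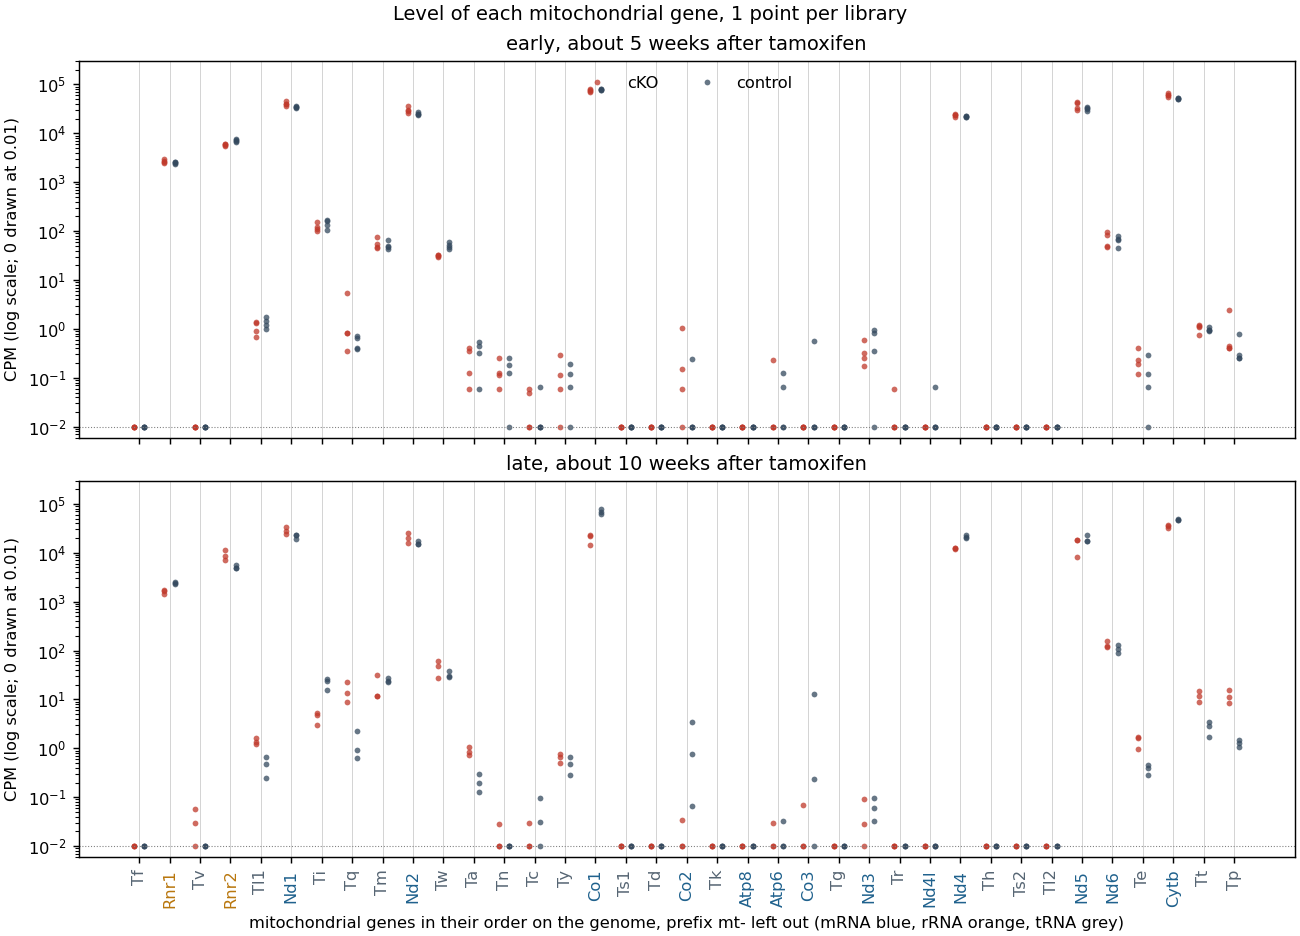
Each point is the CPM of 1 library, on a log scale, for the 37 mitochondrial genes in their order on the genome, cKO in red left of control in dark grey, early above and late below. The empty stretch lies between mt-Co1 and mt-Nd4, and the late groups lie apart at, for example, mt-Ti, mt-Tq, mt-Co1, mt-Tt and mt-Tp.

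The first comparison asked how the mitochondrial transcripts differed between cKO and control hearts while function was still normal. Early, 1 of 15 tested mitochondrial genes passed edgeR's test across all genes, a fall of mt-Tw. None of the 15 rose in that test (4 at an unadjusted p under 0.05, and mt-Cytb in DESeq2's test). Among all genes tested at this time 0.613% passed it (0.0961% as falls). Of the 15, 4 had groups that did not overlap, against 5.65% of all genes tested. These were mt-Tw and mt-Rnr2, lower in cKO hearts, and mt-Nd1 and mt-Cytb, higher in cKO hearts.

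The row of mt-Tw lies just behind mt-Nd2 and shares 2 bases with its end. It held 32.6, 29.3, 31.3 and 32.4 CPM in early cKO hearts, against 58.8, 51.5, 47.1 and 44.0 CPM in early controls. The cKO hearts lay close together and all below the lowest control. The means were 31.4 ± 1.52 CPM in cKO hearts, against 50.3 ± 6.41 CPM in controls (SD, n = 4 each), and the log2 fold change was -0.68 (SE 0.087, adjusted p = 0.00358). Its neighbour mt-Nd2 averaged higher in cKO hearts, with 35379, 29205, 25517 and 29376 CPM against 23496, 27229, 24732 and 24550 CPM in controls, and did not pass the test (log2 fold change 0.26, adjusted p = 0.365). The call of mt-Tw was lost when early cKO replicate 4 was counted as a control (log2 fold change -0.59, adjusted p = 0.074) and when all 14 libraries shared 1 fit (-0.69, adjusted p = 0.17).

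The large-subunit rRNA, mt-Rnr2, held 6087, 5601, 5779 and 5967 CPM in early cKO hearts, against 7148, 7827, 6498 and 7000 CPM in early controls. Every cKO heart was below every control, yet the log2 fold change of -0.28 (SE 0.068) had an adjusted p of 0.12. It passed without early control replicate 3, in DESeq2's test and without the filter on low counts. The small-subunit rRNA, mt-Rnr1, held 2568, 2737, 2934 and 2462 CPM in cKO hearts, against 2404, 2579, 2585 and 2429 CPM in controls, and these overlapped (log2 fold change 0.10, adjusted p = 0.665).

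None of the 7 tested mRNAs passed edgeR's test early (3 had an unadjusted p under 0.05, and mt-Cytb passed in DESeq2's test), and 6 of them had a positive fold change. The complex III subunit mt-Cytb (cytochrome b) held 65426, 60522, 55832 and 60031 CPM in cKO hearts, against 52436, 50393, 50835 and 52056 CPM in controls (log2 fold change 0.23, adjusted p = 0.231). The complex I subunit mt-Nd1 held 46800, 40014, 36888 and 39169 CPM in cKO hearts, against 32736, 34975, 36209 and 33760 CPM in controls (log2 fold change 0.24, adjusted p = 0.315). In both genes the lowest cKO heart was above the highest control. The complex IV subunit mt-Co1, highest of all rows in CPM, held 80430, 74050, 69093 and 77936 CPM in cKO hearts, against 75535, 79030, 76399 and 78979 CPM in controls, with a log2 fold change of -0.04. The fold changes of mt-Nd5 (0.21), mt-Nd4 (0.09) and mt-Nd6 (0.09) had adjusted p-values of 0.549, 0.706 and 0.927. In mt-Nd6 the early cKO hearts held 49.9, 84.1, 97.2 and 47.1 CPM and the controls 68.6, 45.8, 66.7 and 80.1 CPM, and the sign changed when single libraries were left out.

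The other tested tRNA rows overlapped between the early groups. The row of mt-Ti held 153, 109, 102 and 119 CPM in cKO hearts, against 103, 160, 170 and 133 CPM in controls. The row of mt-Tq was near 1 CPM or below it in all early libraries except cKO replicate 3, with 0.824, 0.810, 5.33 and 0.354 CPM in cKO hearts and 0.658, 0.383, 0.705 and 0.415 CPM in controls. Its fold change of 1.81 on the log2 scale (adjusted p = 0.43) thus rests on 1 heart. The rows of mt-Tm, mt-Tl1 and mt-Tt had log2 fold changes of 0.10, -0.35 and 0.12, with adjusted p-values of 0.884, 0.705 and 0.914. The row of mt-Tp was below the filter early, at 0.444, 0.405, 2.39 and 0.413 CPM in cKO hearts, against 0.778, 0.255, 0.256 and 0.296 CPM in controls. The other tRNA rows with counts, mt-Ta, mt-Te, mt-Ty, mt-Tn, mt-Tc and mt-Tr, held at most 9 counts in an early library.

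The second comparison concerned the late hearts, with impaired function. Late, 12 of 19 tested mitochondrial genes passed the test, or 63.2%, while 65.0% of all genes tested passed it at this time. The rises numbered 7 and the falls 5, with 31.8% and 33.2% of all genes. Taken as a count, mitochondrial genes were thus called about as often as other genes. Groups did not overlap in 13 of the 19, against 69.8% of all genes tested. What set the rows apart from each other was direction. By class, 3 mRNAs fell and 0 rose in edgeR's test (1 at an unadjusted p under 0.05, and mt-Nd1 and mt-Nd2 in DESeq2's test), 1 rRNA rose and the other fell, and 6 tRNA rows rose and 1 fell. Among the tRNA rises, the controls of mt-Te, mt-Ta and mt-Tl1 alone were too low for the filter on low counts. Such low rows could enter the test through a rise, so the count of tRNA rises is partly set by the filter. Without late cKO replicate 3 there were 10 rises and 5 falls among 20 tested genes.

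**Figure D3:**
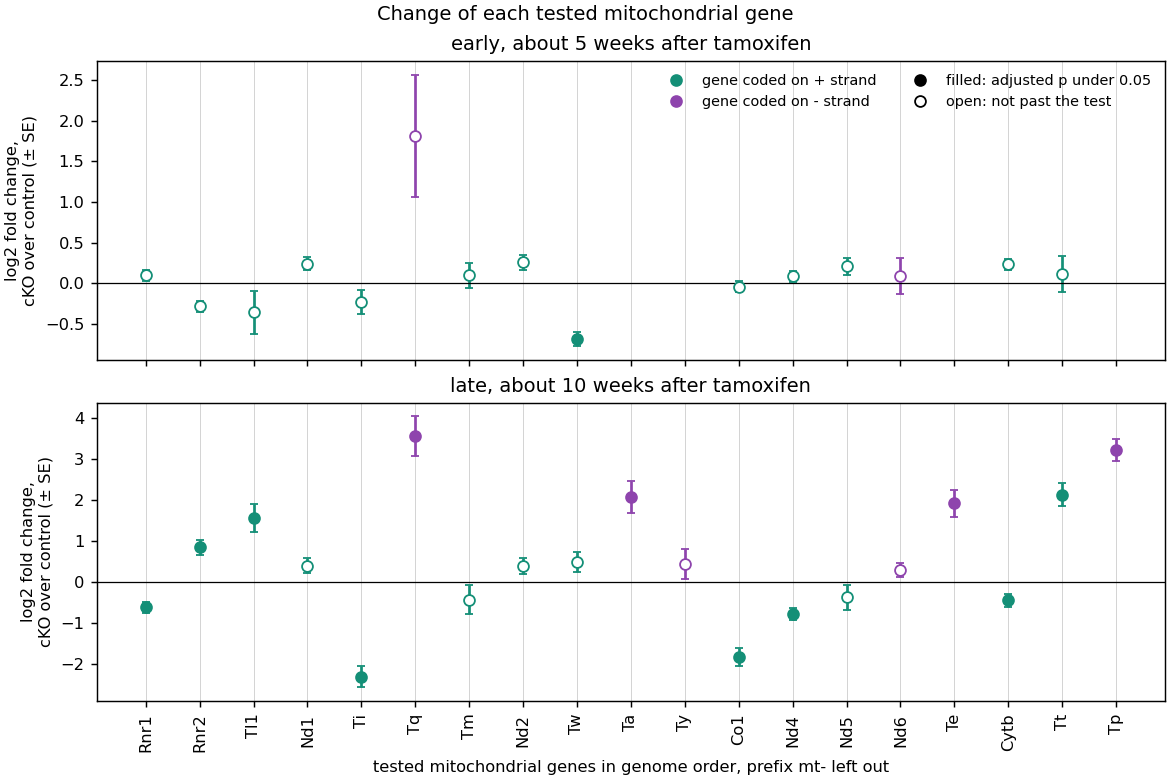
Points are log2 fold changes of cKO over control with their SE, for mitochondrial genes tested at either time in genome order, early above and late below. Green marks genes of the plus strand and purple genes of the minus strand, and filled points passed the test; late, the 6 purple points all lie above 0, and filled green points lie on both sides.

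The late rRNA rows moved in opposite directions. At both times, the libraries were made from RNA bound to oligo-dT. In these rows a change in rRNA amount and one in the part captured cannot be told apart. The large-subunit rRNA mt-Rnr2 held 8574, 11569 and 7138 CPM in late cKO hearts, against 4889, 4784 and 5551 CPM in late controls, so every cKO heart was above every control. It rose by a log2 fold change of 0.84 (SE 0.19, adjusted p = 0.00385), or 1.79-fold. The small-subunit rRNA mt-Rnr1 held 1448, 1701 and 1626 CPM in cKO hearts, against 2566, 2337 and 2436 CPM in controls, with every cKO heart below every control. It fell, with a log2 fold change of -0.62 (SE 0.13, adjusted p = 0.00206). As these genes adjoin mt-Tv, with no base between them, only a tRNA gene separates them in the genome. The ratio of mt-Rnr2 to mt-Rnr1 counts was 4.39 to 6.80 in late cKO hearts and 1.91 to 2.28 in late controls. Early, this ratio was 1.97 to 2.42 in cKO hearts and 2.51 to 3.03 in controls.

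Among the 7 mRNAs tested late, mt-Co1, the catalytic subunit of complex IV, had the largest fall. It held 23345, 21662 and 14575 CPM in late cKO hearts, against 68081, 61889 and 80298 CPM in late controls. The groups were far apart, and the lowest cKO heart was replicate 3. The log2 fold change was -1.82 (SE 0.22, adjusted p = 9.41e-05), a level 3.53-fold lower in cKO hearts, and without late cKO replicate 3 it was -1.63 (adjusted p = 1.6e-05). The complex I subunit mt-Nd4 held 11913, 12787 and 12372 CPM in cKO hearts, against 23174, 19606 and 21251 CPM in controls. It fell, with a log2 fold change of -0.79 (SE 0.14, adjusted p = 0.00111), with no overlap. The gene mt-Cytb held 35390, 36404 and 32431 CPM in cKO hearts, against 48723, 45879 and 47729 CPM in controls. Its fall, a log2 fold change of -0.45 (SE 0.15, adjusted p = 0.0243) was the smallest of the calls. It missed the threshold without any single cKO heart and without control replicate 2 or 3 (adjusted p = 0.0502 to 0.064), although the groups did not overlap. Of the mRNAs below the filter, mt-Co2 held 0, 0 and 1 counts in late cKO hearts, against 2, 111 and 26 counts in late controls. Every cKO heart was below every control. Only 6 of the 13 alternatives tested mt-Co2, and it passed as a fall in each (adjusted p = 9.25e-07 to 0.0271). It was tested without the filter or where its high control counts got it past the filter. In the fit of all 14 libraries, early cKO replicate 2, with 18 counts, also took part in that. Passing there is thus no separate support for a fall. The row of mt-Co3 held 0, 0 and 2 counts in late cKO hearts, against 399, 0 and 8 counts in late controls, with overlap, and passed as a fall in the 1 alternative that tested it, without the filter on low counts.

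The complex I mRNAs near the rRNA genes had positive fold changes that did not pass. The gene mt-Nd1 held 28189, 34284 and 24562 CPM in late cKO hearts, against 23105, 19399 and 23352 CPM in late controls, without overlap (log2 fold change 0.40, adjusted p = 0.0708). The gene mt-Nd2 held 20411, 25255 and 15515 CPM in cKO hearts, against 15184, 14758 and 17110 CPM in controls, with overlap through replicate 3 (0.38, adjusted p = 0.116). Without late cKO replicate 3 both passed, mt-Nd1 at 0.52 (adjusted p = 0.0171) and mt-Nd2 at 0.55 (adjusted p = 0.00958). The gene mt-Nd5 held 17804, 18459 and 8051 CPM in cKO hearts, against 17630, 17197 and 22713 CPM in controls. Here replicate 3 alone was low, and the log2 fold change of -0.38 (adjusted p = 0.284) was -0.07 without it. The gene mt-Nd6 held 116, 126 and 154 CPM in cKO hearts and 105.3, 129 and 88.9 CPM in controls (0.29, adjusted p = 0.145).

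The tRNA rows had the largest late fold changes among the tested rows. The row of mt-Ti, the tRNA-Ile gene, held 3.04, 4.72 and 5.35 CPM in late cKO hearts, against 26, 15.3 and 23.7 CPM in late controls. It fell, with a log2 fold change of -2.31 (SE 0.26, adjusted p = 5.63e-05), to a level 4.97-fold lower in cKO hearts. Its neighbour on the other strand, mt-Tq, the tRNA-Gln gene, held 8.67, 13.3 and 23 CPM in cKO hearts, against 2.25, 0.943 and 0.630 CPM in controls. That row rose 11.8-fold (log2 fold change 3.56, SE 0.48, adjusted p = 0.000196). Thus the row of mt-Ti was above that of mt-Tq in every late control, and the row of mt-Tq was above that of mt-Ti in every late cKO heart. The ratio of mt-Tq to mt-Ti counts was 2.81 to 4.29 in cKO hearts and 0.0265 to 0.0866 in controls.

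At the other end of the genome map, the adjoining rows of mt-Tt and mt-Tp both rose. The tRNA-Pro gene mt-Tp held 8.28, 11.1 and 15.9 CPM in late cKO hearts, against 1.47, 1.26 and 1.08 CPM in late controls (log2 fold change 3.21, SE 0.27, adjusted p = 1.22e-05), a 9.25-fold rise. The tRNA-Thr gene mt-Tt, which adjoins the end of mt-Cytb, held 12, 8.76 and 14.6 CPM in cKO hearts, against 3.42, 2.92 and 1.71 CPM in controls (2.13, SE 0.28, adjusted p = 0.000152), a 4.38-fold rise. In both rows the lowest cKO heart was more than 2 CPM above the highest control. Without late cKO replicate 3, which was highest in both, the log2 fold changes were 2.95 for mt-Tp and 1.96 for mt-Tt, both still past the test.

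Low rows also rose. The tRNA-Glu gene mt-Te held 0.963, 1.65 and 1.68 CPM in late cKO hearts, against 0.391, 0.283 and 0.450 CPM in late controls (log2 fold change 1.92, adjusted p = 0.00089). The tRNA-Ala gene mt-Ta held 1.08, 0.853 and 0.720 CPM in cKO hearts, against 0.195, 0.126 and 0.300 CPM in controls (2.07, adjusted p = 0.00113). The tRNA-Leu gene mt-Tl1, between mt-Rnr2 and mt-Nd1, held 1.35, 1.59 and 1.20 CPM in cKO hearts, against 0.488, 0.251 and 0.660 CPM in controls (1.56, adjusted p = 0.0034). These rows rest on at most 58 counts in a library. Their controls alone were too low for the filter on low counts, which the rows passed through the higher cKO hearts. The groups did not overlap, but this is thus no separate support for the rises.

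The remaining tested tRNA rows did not pass the late test. The row of mt-Tw held 48.9, 60.04 and 27.9 CPM in late cKO hearts, against 30.7, 28.8 and 38.0 CPM in late controls (log2 fold change 0.49, adjusted p = 0.112). Replicate 3 was the lowest of all 6 hearts, and without it the fold change was 0.76 (adjusted p = 0.000363). The row of mt-Tm held 11.6, 31.7 and 11.6 CPM in cKO hearts, against 22.8, 23.5 and 27.9 CPM in controls (-0.43, adjusted p = 0.308), and cKO replicate 2 alone was above the controls; without it the fold change was -1.08 (adjusted p = 0.000617). The row of mt-Ty had a log2 fold change of 0.44 (adjusted p = 0.314). Untested, mt-Tv, mt-Tn and mt-Tc held at most 3 counts in a late library.

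**Figure D4:**
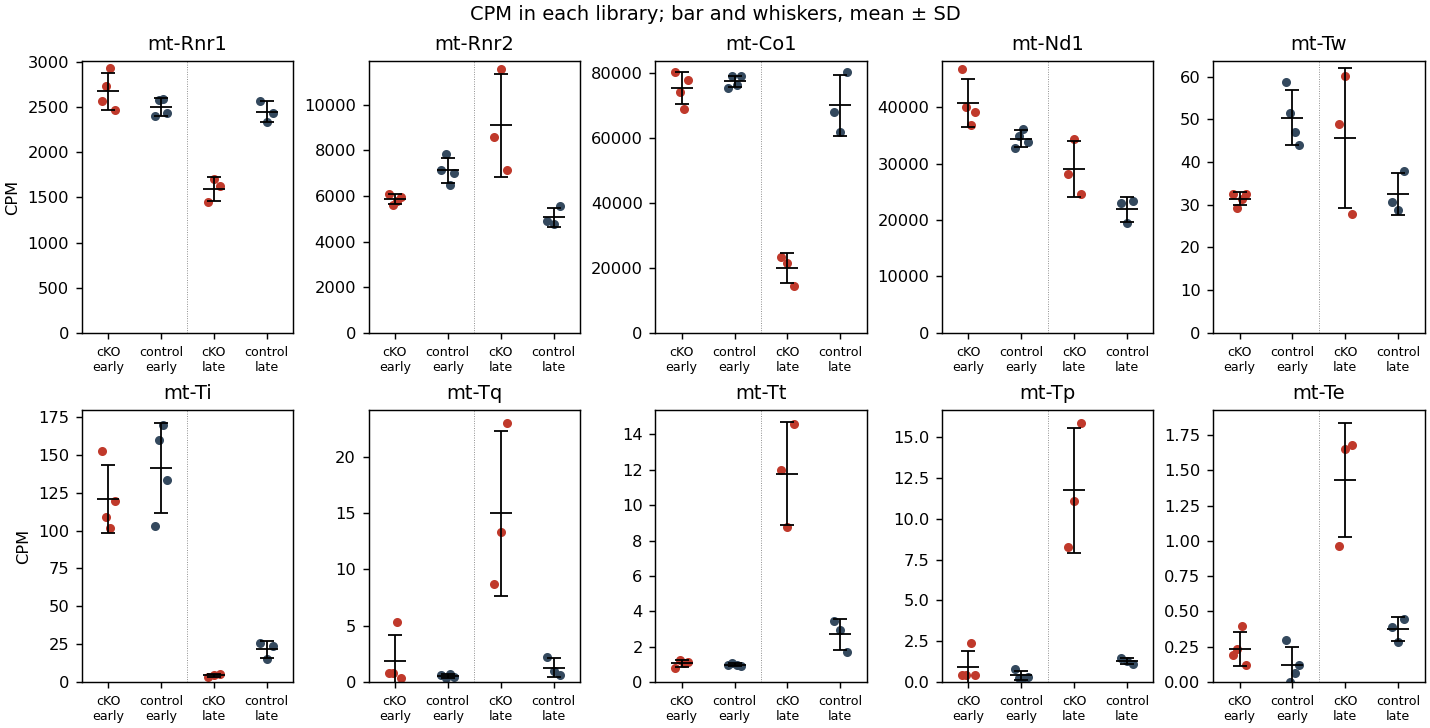
Each panel shows the CPM of 1 mitochondrial gene in every library, cKO in red left of control in dark grey within the early and the late hearts, with the mean as a bar and the SD as whiskers, which are drawn no lower than 0. Late, cKO hearts are below controls for mt-Rnr1, mt-Co1 and mt-Ti and above them for mt-Rnr2, mt-Tq, mt-Tt, mt-Tp and mt-Te; early, the cKO hearts are below controls for mt-Rnr2 and mt-Tw.

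Set out by strand, the 6 late rows of the minus strand that were tested (mt-Tq, mt-Ta, mt-Ty, mt-Nd6, mt-Te and mt-Tp) all had positive fold changes, with a median of 1.995 on the log2 scale, and 4 of them rose. Of the 13 tested rows of the plus strand, 6 had positive and 7 negative fold changes with a median of -0.38, and 3 rose while 5 fell. Over all genes tested the late median was -0.02, and 31.8% rose and 33.2% fell. The strand here is that of the gene in the annotation, since the reads carry none. The minus-strand rows were low, between 0.126 and 23 CPM in single late libraries except for mt-Nd6. The controls of mt-Ta, mt-Te and mt-Ty alone were too low for the filter on low counts, which these rows passed with the cKO hearts. The other minus-strand rows, mt-Tn, mt-Tc and mt-Ts1, were not tested. The filter thus favours rises among such low rows, and the shared sign is partly set by it. Along the plus strand, the genes from mt-Rnr2 to mt-Tw had positive late fold changes except mt-Ti and mt-Tm, and the tested genes from mt-Co1 to mt-Cytb had negative ones.

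The change in cKO hearts was then compared between the times, with the genotype-by-time contrast over all 14 libraries. Of 21 tested mitochondrial genes 12 passed it, or 57.1%, while 61.2% of all genes tested passed it. The late change was the higher one in 6 genes and the lower one in 6 (29.8% and 31.3% of all genes). The complex IV mRNA mt-Co1 differed by -1.76 on the log2 scale (adjusted p = 2.17e-06), and mt-Nd4 by -0.86 (adjusted p = 3.95e-05). The differences were 1.14 for mt-Rnr2 (adjusted p = 7e-05) and -0.70 for mt-Rnr1 (adjusted p = 0.000155). For mt-Rnr2 the sign of the change turned between the times, as its cKO hearts were below controls early and above them late. The row of mt-Tw differed by 1.19 (adjusted p = 0.00104), having fallen early, with a positive late fold change that did not pass. The difference of mt-Cytb was -0.67 (adjusted p = 0.000447), with a positive fold change early and a negative one late.

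Another 4 tRNA rows also differed between times with a call that held in all 21 alternatives. These were mt-Ti at -2.07 (adjusted p = 3.67e-05), mt-Tt at 2.03 (adjusted p = 0.000269), mt-Tl1 at 1.92 (adjusted p = 0.00131) and mt-Ta at 2.57 (adjusted p = 0.00819). The row of mt-Ta held at most 9 counts in an early library and 10 in a late control. It passed the filter on low counts through the late cKO hearts, so its call is no separate support for a difference. For mt-Tp the difference of 1.97 (adjusted p = 0.0489) passed in 7 of 21 alternatives and missed in the other 14. For mt-Tq, 11.8-fold higher in late cKO hearts, the difference of 1.76 did not pass (adjusted p = 0.176), and it passed without early cKO replicate 3, the heart with 5.33 CPM. The twelfth call, mt-Co2, rests on few counts, namely 0, 18, 3 and 1 counts in early cKO hearts, 0, 0, 0 and 4 in early controls, 0, 0 and 1 in late cKO hearts, and 2, 111 and 26 in late controls.

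Together the 37 rows took up a large part of each library. They held 29.4%, 27.3%, 25.6% and 27.7% of all counts in early cKO hearts, against 25.1%, 26%, 24.5% and 25.5% in early controls, and the groups overlapped. The means were 27.5% ± 1.56 in cKO hearts and 25.3% ± 0.619 in controls (SD, n = 4 each). Late, they held 14.4%, 16% and 11.2% in cKO hearts, against 20.2%, 19.7% and 22.6% in controls, and every cKO heart was below every control. The late means were 13.8% ± 2.45 in cKO hearts and 20.9% ± 1.54 in controls (SD, n = 3 each). The 2 rRNA rows held 1.04% ± 0.239 of all counts in late cKO hearts and 0.772% ± 0.0412 in late controls, and 0.852% ± 0.0312 in early cKO hearts and 0.962% ± 0.0614 in early controls. The tRNA rows held 0.0108% of all counts in late cKO hearts and 0.00878% in late controls. A share depends on all other transcripts of the library, and late cKO libraries also differed in most of those.

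Within the mitochondrial counts, the make-up of late cKO libraries was another one. The gene mt-Co1 took 13.9% ± 1.74 of mitochondrial counts in late cKO hearts and 34.4% ± 1.76 in late controls (SD, n = 3 each). The shares of mt-Nd1 were 20.4% ± 1.13 in cKO hearts and 10.8% ± 0.494 in controls, and those of mt-Nd2 were 14.2% ± 1.17 in cKO hearts and 7.72% ± 0.239 in controls. The share of mt-Rnr2 was 6.36% ± 0.682 in cKO hearts and 2.50% ± 0.0863 in controls. None of these 4 shares overlapped between the late groups. By contrast, mt-Cytb held 24.8% ± 2.78 in cKO hearts and 23.4% ± 1.58 in controls, with overlap. Shares of 1 total are tied to each other, since a lower share of one gene raises the others.

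Early, the make-up differed less. The gene mt-Co1 took 27.4% ± 0.670 of mitochondrial counts in early cKO hearts and 30.7% ± 0.379 in early controls, and mt-Rnr2 took 2.13% ± 0.142 in cKO hearts and 2.82% ± 0.174 in controls (SD, n = 4 each). Both shares were lower in every cKO heart than in every control. The ratio of mt-Co1 to mt-Nd1 counts was 1.72 to 1.99 in early cKO hearts and 2.11 to 2.34 in early controls. Late, it was 0.593 to 0.828 in cKO hearts and 2.95 to 3.44 in controls. This ratio does not depend on the scaling of the libraries.

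**Figure D5:**
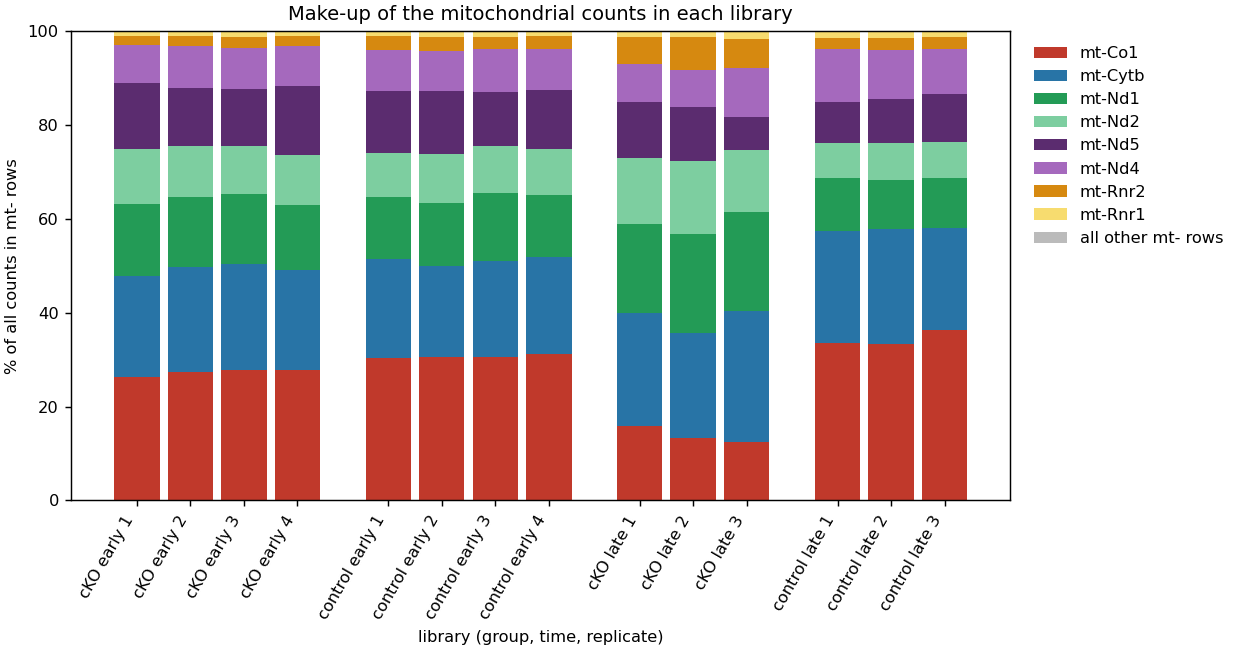
Each bar splits the mitochondrial counts of 1 library among 8 genes and all other mitochondrial rows, in percent, with cKO libraries left of controls within each time. The red part, mt-Co1, spans 12.5% to 15.9% in late cKO libraries and 33.3% to 36.4% in late controls, and 26.4% to 27.8% in early cKO libraries and 30.3% to 31.2% in early controls.

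The proteins that copy, transcribe, cut, modify and degrade mitochondrial RNA are coded in the nucleus. Their lists were chosen with results of these data known. Of 80 such genes listed, 70 were in the tables. Early, 0 of the 69 tested passed edgeR's test (7 at an unadjusted p under 0.05, and 0 in DESeq2's test), beside 0.613% of all genes. Late, 18 of 70 rose and 27 fell, a share called of 64.3% beside 65.0% of all genes, and without late cKO replicate 3 19 rose and 33 fell. The late median of the 70 was a log2 fold change of -0.11, and that of all genes tested was -0.02.

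The counts by list stand beside 31.8% of all genes tested that rose late and 33.2% that fell. In the transcription list, 4 of 11 genes fell late, a share near that of all genes, and 0 rose, with 0 rises also at an unadjusted p under 0.05 and in DESeq2's test. The mitochondrial RNA polymerase Polrmt stood at 24.7 ± 0.970 CPM in late cKO hearts, against 36.4 ± 2.63 CPM in late controls (SD, n = 3 each; log2 fold change -0.56, adjusted p = 0.00188). Mterf2, of the mitochondrial transcription termination factor family, had a log2 fold change of -2.01 (adjusted p = 4.06e-06). Tfb1m, which dimethylates the small-subunit rRNA and is related to the transcription factor Tfb2m, fell by 1.16 (adjusted p = 0.000362). Tfam, which packages mitochondrial DNA and starts its transcription, had 31.8 ± 3.65 CPM in cKO hearts, against 38.7 ± 2.66 CPM in controls and did not pass (-0.28, adjusted p = 0.0691). In the list for DNA replication and the nucleoid, 3 of 13 genes rose and 6 fell. Those that fell include the helicase Twnk (-0.72), the nuclease Mgme1 (-1.37) and Dguok (-0.99). Those that rose were the thymidine kinase Tk2 (1.0), the nucleoid-associated ATPase Atad3a (1.09) and Top3a (0.64).

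Of the 6 tested genes for RNA cleavage, 2 rose and 0 fell, with 0 falls also at an unadjusted p under 0.05 and in DESeq2's test (1 without late cKO replicate 3). They were Elac2, which cuts the end behind each tRNA, at 47.7 ± 6.63 CPM in late cKO hearts, against 29 ± 1.36 CPM in late controls (log2 fold change 0.71, adjusted p = 0.00105), and Tbrg4 (0.39, adjusted p = 0.0317), of the FASTK family. In the list for mRNA stability, polyadenylation and decay, 4 of 14 rose and 7 fell. The oligoribonuclease Rexo2 had 109 ± 20.1 CPM in cKO hearts, against 33.6 ± 1.75 CPM in controls (1.70, adjusted p = 1.35e-05), and Pde12, which removes poly-A tails, rose by 1.10. Mtpap rose by 0.34 (adjusted p = 0.0188). Among the falls, Taco1, a translational activator of mt-Co1 mRNA, had 17 ± 1.56 CPM in cKO hearts, against 31.4 ± 1.82 CPM in controls (-0.89, adjusted p = 0.000179). Fastkd1 fell by 1.0 on the log2 scale and the helicase Supv3l1 by 0.64. The partners that bind and stabilise mitochondrial mRNAs stood at 174 ± 2.35 CPM in cKO hearts, against 221 ± 12.8 CPM in controls for Lrpprc (-0.34, adjusted p = 0.0166) and at 30.8 ± 9.96 CPM in cKO hearts, against 31.2 ± 4.09 CPM in controls, for Slirp (adjusted p = 0.944). Without late cKO replicate 3, Slirp passed the test as a fall (-0.30, adjusted p = 0.0453).

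The list for tRNA ends and modification had 7 rises and 6 falls among 17 genes. Trnt1, which adds the CCA end to tRNAs, stood at 60.6 ± 2.71 CPM in late cKO hearts, against 19.9 ± 0.571 CPM in late controls (log2 fold change 1.60, adjusted p = 3.49e-06). The tRNA methyltransferases Nsun2 (1.02) and Trmt1 (0.86) rose, while Trmt5 (-1.59), Osgepl1 (-1.30) and Mto1 (-0.94), which modify mitochondrial tRNAs, fell. In the rRNA modification list, 2 of 10 rose, Nsun4 (0.31) and Mettl15 (0.47), and 5 fell, among them Ftsj2 (-1.63), a methyltransferase of the large-subunit rRNA, Rpusd4 (-1.11) and Tfb1m. Leaving out single libraries ended the call of Lrpprc (cKO replicate 2, control replicate 1 or 2), Tbrg4 (control replicate 2 or 3), Mtpap (cKO replicate 1, control replicate 2 or 3), Nsun4 (cKO replicate 2 or any control) and Mettl15 (cKO replicate 2, control replicate 2 or 3), with adjusted p-values of 0.0508 to 0.112.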

How the data were processed

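Poly-A selected RNA from mouse hearts was sequenced in 14 libraries. Per the labels' protocols, oligo-dT beads took mRNA out of 100 ng of total RNA, the kit was TruSeq RNA V2, a kit without strand marking, and sequencing gave single-end 100-nt reads. Per the submitters' processing notes, Trimmomatic 0.36 and STAR 2.6.0c were among the tools, with GRCm38 as the build. Which tool counted the reads, on which annotation and strand setting, and what it did with reads of several matches, is not given in the sources used here. Raw counts were deposited by the authors as whole numbers, in 1 table per time with 53735 gene symbols each.

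Here, edgeR 4.0.16 in R 4.3.3 tested the counts by its quasi-likelihood F test (TMM; filterByExpr with minimum count 10 and minimum total 15) and Benjamini-Hochberg adjustment over all genes tested, 13529 early, 14942 late and 14555 for the genotype-by-time contrast over all 14 libraries. Calls need an adjusted p under 0.05, and adjusted p-values are from this test unless DESeq2 1.42.0, an alternative, is named. CPM used TMM-scaled library sizes, and an SE is the log2 fold change over the square root of F. Counts, not molecules, set the precision. Gene places, strands and sequences came from GENCODE M21. Shares, ratios and make-up are given as values without a p. The procedure was also tested on simulated data with 200 changed genes per comparison. It called 85% of 1.5-fold changes early, 21% late and 15% for the contrast between times. For 3-fold changes these shares were 100%, 98% and 96%. Late or contrast values of about 1.5-fold or less that did not pass are thus not shown to be absent. The changed genes were drawn from rows with higher counts, so the shares called do not cover mt-Ta, mt-Te, mt-Tl1 or mt-Ty. In the data 65.0% of genes tested passed late and 61.2% for the contrast. With 200 changed genes, the simulated late and contrast calls needed a smaller unadjusted p than those of the data.

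All mt- rows are reported. From each list of nuclear-coded factors, up to 3 called genes with the smallest p in each direction were named, and Polrmt, Tfam, Lrpprc and Slirp always. The members and lists were chosen with earlier results of these data known. Libraries of a group differed beyond sampling noise in all pairs (chi-square per gene 3.90 or more). Alternatives were DESeq2, other scalings, no filter, the replicate block, 1 fit of all libraries, early cKO replicate 4 as a control, and each library left out.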

Additional observations from a re-analysis of the deposited data

Results flagged for a closer look

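Single libraries stood apart from the others of their group in 6 of 44 sets of values examined, all 6 in early groups. Chance would give about 1 in 20 in independent sets. The sets share libraries, and several of the rows are near 0, so that rate need not hold and no excess is read from it. In early cKO hearts these were mt-Tq at 5.33 CPM and mt-Tp at 2.39 CPM, both in replicate 3, the share of rRNA counts at 0.898%, also in replicate 3, and mt-Co2 at 1.04 CPM in replicate 2. In early controls they were mt-Co2 at 0.237 CPM in replicate 4 and mt-Tp at 0.778 CPM in replicate 1. The rows of mt-Tq and mt-Tp, high in early cKO replicate 3 alone, are those with the largest late rises.

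The change in cKO hearts differed between the times for 12 genes by edgeR's genotype-by-time contrast. The late change was lower than the early one on the log2 scale for mt-Rnr1 (-0.70), mt-Ti (-2.07), mt-Co1 (-1.76), mt-Nd4 (-0.86), mt-Cytb (-0.67) and mt-Co2 (-8.77). The last is a fitted value on rows with many zeros, depends on the prior count and is no bound. The late change was higher for mt-Rnr2 (1.14), mt-Tl1 (1.92), mt-Tw (1.19), mt-Ta (2.57), mt-Tt (2.03) and mt-Tp (1.97). The row of mt-Ta passed the filter on low counts through its late cKO hearts, so its call is no separate support.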

How the results depend on the processing

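Of the 12 late calls among mitochondrial genes, 11 held in all 13 alternatives, and mt-Cytb lost its call in 6. Among the 11, mt-Te, mt-Ta and mt-Tl1 passed the filter on low counts through their higher cKO hearts, so holding there is no separate support. The late rows of mt-Co2 and mt-Co3, below the filter, passed as falls in 6 and 1 of these alternatives, the only ones that tested them. They were tested there without the filter or through high counts in controls, with early cKO replicate 2 for mt-Co2 in the fit of all libraries. This is thus no separate support. The replicate numbers of the labels gave no sign of pairing. Same-numbered libraries deviated from their group means with correlations of -0.089 to -0.036 early and -0.412 to -0.058 late. With so few libraries per group, these values cannot exclude a pairing. With the replicate block, mitochondrial calls were 0 up and 1 down early, 7 up and 4 down late (mt-Cytb at an adjusted p of 0.0807 was lost) and 6 up and 6 down for the contrast between times. Early calls up numbered 1 with DESeq2 and 1 without the filter on low counts, and early calls down numbered 2 with each of these, 0 with all 14 libraries in 1 fit and 0 with early cKO replicate 4 as a control. Leaving out single libraries gave 1 to 2 early calls down. For the contrast between times, the mt-Co2 row was not tested without early cKO replicate 2. Against nuclear counts, the share of all mitochondrial counts in cKO minus control hearts was 4.14 percentage points early and -10.3 late, and that of mRNA counts 4.26 early and -10.5 late. Library totals without TMM placed the median of all genes at -0.09 late and -0.10 for the contrast.

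Some small values with no call changed sign. Over single libraries left out, the early values were -0.0713 to 0.236 for mt-Tm, -0.116 to 0.241 for mt-Nd6, -0.101 to 0.018 for Slirp and -0.0386 to 0.0574 for Tfam, which was -0.00034 with all libraries in 1 fit. Late, Slirp was 0.00318 with DESeq2, 0.0027 with RLE size factors and -0.303 to 0.132 over single libraries left out. For the contrast these ranges were -0.00728 to 0.299 for mt-Nd2, -0.547 to 1.04 for mt-Ty and -0.985 to 0.598 for mt-Nd3. There mt-Ty was -0.0761 with library totals and -0.311 with early cKO replicate 4 as a control, mt-Nd6 was -0.013 in that last setting, and mt-Nd3 was -0.0105 with the replicate block. The cause was not tested. Depth limits the low tRNA rows, as mt-Te, mt-Ta and mt-Tl1 rest on at most 58 counts in a late library.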
